A study of Mus musculus with 18 samples.

Results

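RNA from orpk and wild-type mouse aortic endothelial cells was compared after culture under low laminar shear stress. The comparison covers 6 of the 18 libraries of the study, 3 per genotype at 2 dyn/cm2, and the 13058 of 21647 annotated genes that had enough reads to be tested. The study also sequenced both genotypes in static culture and at 30 dyn/cm2, 3 libraries each, and those 12 libraries serve here to set the low-shear difference beside the others.

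The orpk group carried the homozygous Tg737orpk/orpk genotype, which the labels call an insertion mutation in IFT88, and the control group was wild type. Both were embryonic aortic endothelial cells grown on gelatin in a medium with low serum. They were starved of serum for 24 h and then exposed to flow for 48 h, and the orpk and wild-type groups at 2 dyn/cm2 differed only in genotype by their labels. The labels give no strain, sex, embryo age or number of animals, and do not say whether each genotype is a single cell line. The genotype and the origin of the cells therefore cannot be told apart in any result below. No separate cultures are named either, so the p-values measure the spread between libraries, which may be technical.

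IFT88 is a subunit of the intraflagellar transport (IFT) trains, the protein complexes that carry cargo along the primary cilium and without which the cilium is short or missing. The primary cilium is a single antenna on the cell surface that senses fluid flow in endothelium and in kidney tubules and through which Hedgehog signals pass. Orpk mice carry a partial loss of the Ift88 product and are known for cystic kidneys, and cultured orpk endothelial cells are used as cells with defective cilia.

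Levels are given in CPM, read counts divided by a library size that edgeR's TMM factors scale. Fold changes are orpk over wild type on the log2 scale. A gene is called higher or lower where the adjusted p of edgeR's quasi-likelihood test was below 0.05. The value after ± is the log2 fold change divided by the square root of that test's F statistic. It is no direct standard error and understates the counting error where 1 genotype had few reads, so the largest folds are less certain than it shows. Where 1 genotype had no read over its 3 libraries, the fold is a lower bound set at 3 reads over that group, 0.0561 CPM in wild type and 0.0626 CPM in orpk. Where it had 1 to 3 reads, the ratio carries a counting interval.

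The 6 libraries held between 14807633 and 17387553 counts. Between 14071 and 14223 genes had a read in the wild-type libraries and between 14852 and 14985 in the orpk libraries, and the 10 most abundant genes took 2.53% to 2.57% of the wild-type counts and 5.16% to 5.70% of the orpk counts. Wild-type replicate 1 and orpk replicate 2 stood apart from the other libraries of their groups. The chi-square per degree of freedom was 6.10 and 7.43 between wild-type replicate 1 and the other two, against 1.42 between those, and it was 3.28 and 3.66 for orpk replicate 2 against 1.55. Wild-type replicate 1 was low in Lars2, a mitochondrial leucyl-tRNA synthetase, at 165 CPM against 337 and 728, although those libraries also differed from each other. It was low in Prrc2c as well (341 CPM against 521 and 534). Orpk replicate 2 was high in Ltbp2 (27.3 CPM against 17.6 and 17.4) and low in Skil (79.6 CPM against 107 and 114). Without both libraries, 10947 of the 11432 genes called (87.5% of those tested) were still called in the same direction and none was called in the opposite one.

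Ift88, the mutated gene (ENSMUSG00000040040, chr14:57424062-57517936 on GRCm38, plus strand), was measured at 13.9, 15.5 and 14.2 CPM in the wild-type libraries and 7.87, 7.16 and 8.17 CPM in the orpk libraries. Every orpk library was below every wild-type library (log2 fold change -0.91 ± 0.097, adjusted p = 3.11e-11), and the transcript was still present. The test against a 2-fold change was not passed. Ift88 overlaps 2 genes on the other strand, and the strand setting of the authors' counting is not given in the sources used here.

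The endothelial label was checked against 6 defining markers. Pecam1, a junctional adhesion receptor, stood at 0.761, 0.781 and 0.597 CPM in wild type and 0.132, 0.180 and 0.124 CPM in orpk. Cdh5 (VE-cadherin) had no read in wild type and 28 reads over the 3 orpk libraries. Kdr and Tek, the receptors for VEGF and the angiopoietins, had 1 and 1 wild-type reads and 128 and 91 orpk reads, and Tie1 and Emcn had 0 and 1 in wild type against 1 and 5. None of the 6 was above 3.16 CPM in any library, and Fli1 and Sox17, transcription factors of the lineage, had no read in any of the 6 libraries. The defining markers were thus low or at 0 in both genotypes, and the cells are called by their genotype from here on. In RNA from whole cultures, fewer cells of a type and less RNA per cell cannot be told apart.

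Other genes of the endothelial list were present and differed. Of 41 genes, 26 were tested, 18 were called higher in orpk and 6 lower, beside 44.6% and 42.9% of all genes tested. Each list count at 2 dyn/cm2 below is to be read beside these shares. Cd34, a sialomucin of vascular progenitors and also of fibroblasts, was at 0.109, 0.180 and 0.38 CPM in wild type and 498, 548 and 508 CPM in orpk (log2 fold change 11.12 ± 0.098). Flt1, a VEGF receptor, rose from 13.8, 16.8 and 15.8 CPM to 74.8, 84.3 and 82.2 CPM (log2 fold change 2.38 ± 0.059). Mcam (CD146) went the other way, from 180.3, 184 and 189 CPM in wild type to 38.9, 44.6 and 40.8 CPM in orpk (log2 fold change -2.15 ± 0.047). For these 3 genes no orpk library fell among the wild-type ones. The nitric oxide synthase Nos3 was low in both and lower in orpk (1.63, 1.08 and 1.03 CPM against 0.132, 0.120 and 0.124 CPM). The summed level of the tested members was 757 to 793 CPM in wild type and 1383 to 1487 CPM in orpk.

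**Figure D1:**
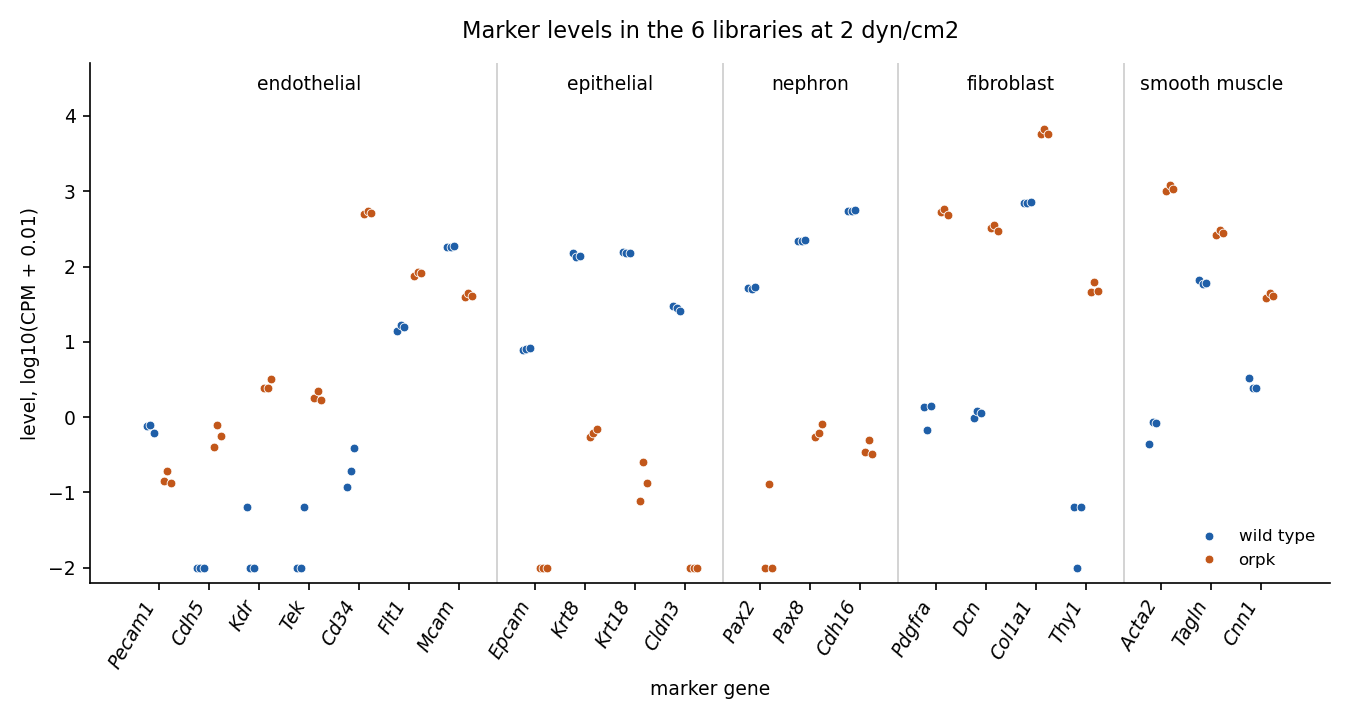
Levels of lineage marker genes in the 3 wild-type (blue) and 3 orpk (orange) libraries at 2 dyn/cm2, 1 point per library, on a log10 axis of CPM plus 0.01, so that a library with no read sits at -2. Levels are to be compared within a gene. The defining endothelial markers Pecam1, Cdh5, Kdr and Tek are at most 3.16 CPM in every library. The epithelial and nephron genes shown are higher in wild type, and the fibroblast and smooth muscle genes shown are higher in orpk. The genes shown are a selection from their lists. Of all members tested, 2 of 26 epithelial and 5 of 17 nephron genes were called higher in orpk. Among fibroblast and smooth muscle genes, 1 of 20 and 3 of 16 were called lower in orpk.

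Across all genes the genotypes differed in most transcripts. Of 13058 genes tested, 11432 (87.5%) were called, 5826 higher in orpk and 5606 lower, and in 11330 genes (86.8%) the 3 orpk libraries did not overlap the 3 wild-type libraries. As most genes pass such a test, a second one asked for a change beyond 2-fold, and 4259 genes (32.6%) passed it, 2525 higher (19.3%) and 1734 lower (13.3%). The fold was above 3 on the log2 scale in 1342 genes and below -3 in 692. At least 5 CPM in orpk with at most 3 reads over the wild-type group was seen for 318 genes, and the reverse for 91. The first principal component of the 6 libraries held 98.4% of their variance. The median log2 fold change was 0.019 with TMM scaling and -0.20 with library totals alone, where 4677 genes were called higher and 6835 lower, so the sign of a small fold change depends on the scaling.

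**Figure D2:**
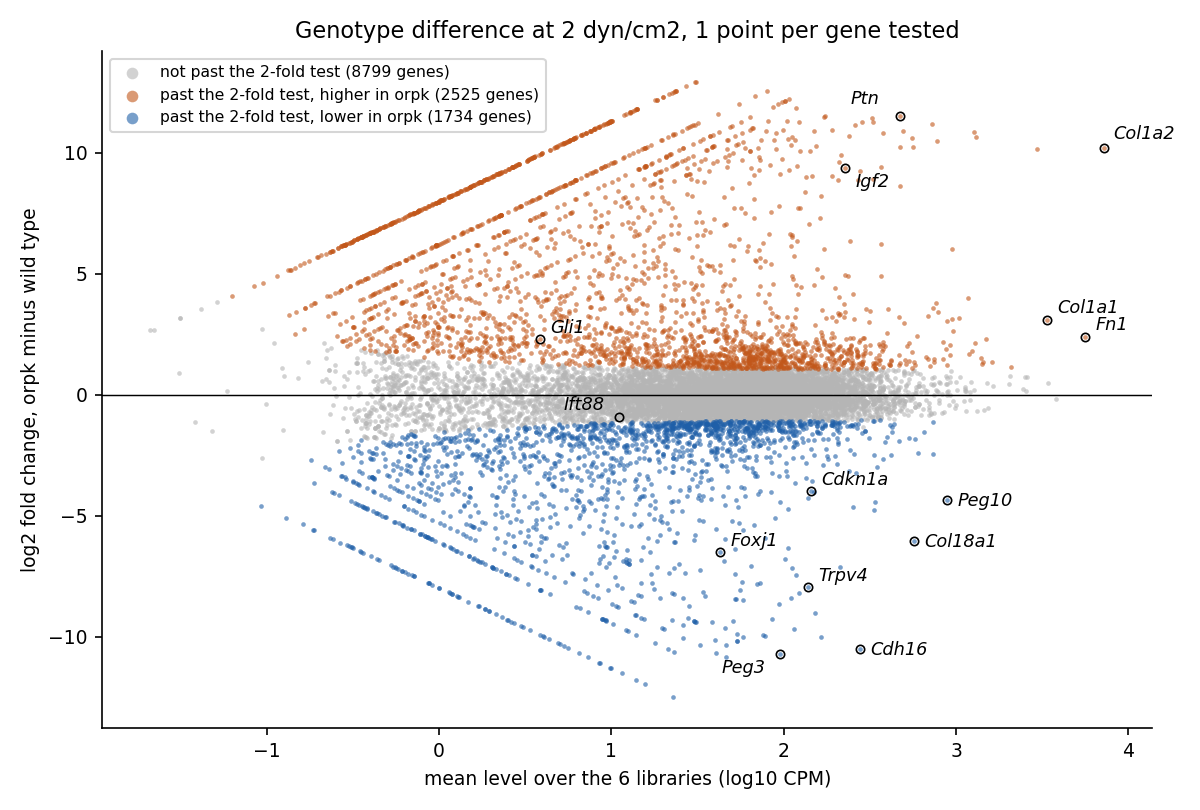
Log2 fold change at 2 dyn/cm2 (orpk minus wild type) against the mean level over the 6 libraries (log10 CPM) for each of the 13058 genes tested. Genes past the 2-fold test are coloured (2525 higher, 1734 lower), and the straight lines of points at the edges are genes with a few or no reads in 1 genotype, whose fold is set by the fit and is no bound. Ift88 lies close to 0 beside Col1a2 at the top and Cdh16 and Peg3 at the bottom.

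The largest gain in orpk was in matrix transcripts. Col1a2, a chain of type I collagen, was at 12, 13.5 and 11.6 CPM in wild type and 13958, 15903 and 13727 CPM in orpk (log2 fold change 10.20 ± 0.15, adjusted p = 7.76e-17). Col3a1, the type III chain, was at 5.65, 4.63 and 4.99 CPM against 5606, 6646 and 5369 CPM, and Bgn, the matrix proteoglycan biglycan, at 1.47, 2.22 and 1.30 CPM against 2515, 2849 and 2494 CPM. No wild-type library came near an orpk one for these 3 genes. Fn1 (fibronectin) and Col1a1 were abundant in both genotypes and differed less in ratio. Fn1 was at 1470.1, 1947 and 1976 CPM in wild type and 9291, 10254 and 8864 CPM in orpk (log2 fold change 2.4 ± 0.096), and Col1a1 at 696, 699 and 720.4 CPM and 5684, 6752 and 5723 CPM (log2 fold change 3.10 ± 0.050). With Fbln2 (log2 fold change 10.85 ± 0.080), these were the 6 genes with the largest rise in mean CPM.

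Among genes with more than 3 wild-type reads and a mean of at least 5 CPM, the 10 largest fold changes in orpk belonged to Ptn, Col11a1, Fat4, Prrx1, Slc24a3, Ccnd2, Colec12, Rcn1, Lox and Cd34. Ptn, the secreted heparin-binding factor pleiotrophin, was at 0.272, 0.420 and 0.271 CPM in wild type and 919.7, 1059 and 872 CPM in orpk. Prrx1, a homeobox factor of limb and connective tissue mesenchyme, was at 0.0543, 0.30 and 0.326 CPM against 655, 668 and 624 CPM (log2 fold change 11.45 ± 0.095). Ccnd2, the D-type cyclin that drives entry into S phase, was at 0.217, 0.360 and 0.217 CPM against 652, 695 and 637 CPM (log2 fold change 11.26 ± 0.083). Lox, the oxidase that crosslinks collagen and elastin, was at 0.706, 0.541 and 0.597 CPM against 1408, 1550.3 and 1404 CPM. Over the 10 genes the lowest orpk library was at 204 CPM (Slc24a3) and the highest wild-type library at 0.706 CPM (Lox). Orpk transcripts with at most 3 reads over wild type, taken by level, were led by Armcx2, the chemokine Cxcl12 (5782-fold higher, 95% counting interval 1600.1 to 47747), Ildr2, the elastic fibre protein Fbln5, the matricellular Ccn3 and Grem1, a BMP antagonist (4978-fold higher, 95% counting interval 1378 to 41115).

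Among the 10 lowest fold changes in orpk was that of Cdh16, the kidney-specific cadherin of tubule epithelium, which was at 542, 549.9 and 572 CPM in wild type and 0.331, 0.481 and 0.309 CPM in orpk (log2 fold change -10.50 ± 0.11). Peg3, an imprinted zinc finger gene, was at 167, 192 and 209 CPM against 0.0661, 0.120 and 0.124 CPM (log2 fold change -10.72 ± 0.16). Gprc5c, an orphan receptor, was at 323, 335 and 327 CPM against 0.397, 0.421 and 0.124 CPM. Every orpk library was below 1 CPM for these 3 genes and for Prom1, Rab11fip4, Wfdc2, Bcam, Krt18 and Cdh6, which were also among the 10 lowest. Sim2, Epb41l4a, Amigo2, Pcbd1, Cds1 and Pax2 led the wild-type transcripts with at most 3 orpk reads. The largest falls in mean CPM were in Peg10, Col18a1, Ly6e, Aplp2, Tkt and Hsp90b1. Peg10, an imprinted gene derived from a retrotransposon, fell from 1612, 1739 and 1734 CPM to 83.5, 85.5 and 80.4 CPM (log2 fold change -4.35 ± 0.042), and Hsp90b1, the chaperone GRP94, from 1804, 1725 and 1764 CPM to 1082, 1196 and 1092 CPM (log2 fold change -0.65 ± 0.034). Of the 69 genes chosen by level or fold here and across flow below, 28 overlap a gene on the other strand.

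Fibroblast markers were higher in orpk nearly without exception. All 21 list members were annotated, 20 were tested, 19 were called higher and 1 lower, with a median log2 fold change of 8.53. Pdgfra, the PDGF receptor of mesenchyme, was at 1.36, 0.661 and 1.41 CPM in wild type and 536, 589 and 491 CPM in orpk (log2 fold change 8.85 ± 0.100). Dcn, the small proteoglycan decorin, was at 0.978, 1.20 and 1.14 CPM against 321, 359.5 and 298 CPM (log2 fold change 8.20 ± 0.099). Thy1, a surface glycoprotein of fibroblasts, had 2 reads over wild type and was at 46.5, 63.0 and 47.5 CPM in orpk. The libraries did not overlap for any of the 3. The single lower member was Dpp4, a surface protease, which had 10 wild-type reads and 0 orpk reads. The summed level of the list was 758 to 780.0 CPM in wild type and 27686 to 32482 CPM in orpk, and of the 3 defining markers Col1a1 was abundant in both, while Pdgfra and Dcn in wild type lay in the same low range as the endothelial markers.

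Genes tied to mesenchymal transition and to contraction followed. All 20 members of the mesenchymal list were called higher, with a median of 2.51, although Tgfbr2 (0.091) was called lower, at -0.13, with library totals as the scaling. Snai2, a repressor of epithelial genes, had a log2 fold change of 9.57 and its relative Snai1 of 2.72, Zeb2 of 2.63, Cdh11, the cadherin of mesenchymal cells, of 9.05, and Vim, the intermediate filament vimentin, of 1.14. Of 20 smooth muscle genes 16 were tested, 13 called higher and 3 lower. Acta2, smooth muscle actin, was at 0.435, 0.841 and 0.814 CPM in wild type and 1021, 1205 and 1085 CPM in orpk (log2 fold change 10.62 ± 0.10). Myl9 and Cnn1 (calponin) followed at 7.03 and 3.92 and Tagln at 2.19, while Smtn (smoothelin) was lower at -1.52. The late marker Myh11, smooth muscle myosin, had only 3 and 11 reads.

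Epithelial genes formed the opposite block. Of 34 genes 26 were tested, 23 called lower in orpk and 2 higher. The median was -7.13, or -6.14 with genes at few reads set to their bound. The keratins Krt8 and Krt18 pair into the filaments of simple epithelia. Krt8 was at 151, 133 and 136 CPM in wild type and 0.529, 0.601 and 0.681 CPM in orpk (log2 fold change -7.84 ± 0.11), and Krt18 at 156, 149.6 and 151 CPM against 0.0661, 0.241 and 0.124 CPM. The adhesion molecule Epcam was at 7.77, 7.99 and 8.36 CPM in wild type and at 0 in each orpk library (at least 128-fold lower), and the tight junction protein Cldn3 was at least 446-fold lower in orpk. Dsp (desmoplakin, -9.01), Spint2 (-8.44) and Grhl2 (-3.23) were lower as well. Cdh1 (E-cadherin), a defining marker, was near 0 in both, with 11 and 9 reads. The exceptions were Krt19 (1.59) and Muc1 (0.62), both called higher, of which Muc1 was not called on library totals. The summed level was 1277 to 1301 CPM in wild type and 70.8 to 85.3 CPM in orpk.

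More nephron genes were lower than higher in orpk. Of 28 genes 17 were tested, 10 called lower and 5 higher, or 12 and 3 on library totals. Pax8 and Pax2 are paired-box factors of the developing nephron. Pax8 was at 216, 219 and 224 CPM in wild type and 0.529, 0.601 and 0.805 CPM in orpk (log2 fold change -8.39 ± 0.10), and Pax2 at 51.5, 51.0 and 54.3 CPM with only 2 reads over orpk. Cdh6, a kidney cadherin, had a log2 fold change of -9.68, Pkhd1, the cilium protein fibrocystin, of -7.75, and Lrp2, the endocytic receptor megalin, of -5.40. Osr1, an early marker of intermediate mesoderm, was the 1 member past 2-fold in the other direction (log2 fold change 7.62 ± 0.18), and Six2, Umod and Slc34a1 had no read in any of the 6 libraries. The summed level was 2002 to 2207 CPM in wild type and 775 to 818 CPM in orpk.

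The mesothelial list held 8 genes, of which 5 were tested, 4 called higher in orpk and 1 lower. With DESeq2, library totals, no filter on low counts or only the compared groups in the fit, 3 were called higher. The count was also 3 with any single library at 2 dyn/cm2 left out, or both that stand apart. With a filter at a mean of 1 CPM it was 1. The median log2 fold change was 3.16, but 3 members had no wild-type read. With genes at few reads set to their bound or left out, the median was 2.78. Its summed level was 41.2 to 42.6 CPM in wild type and 111 to 117 CPM in orpk. Of the 3 defining mesothelial markers, Msln differed by 1.46 and Upk3b by -1.81, and Wt1 had 0 and 3 reads. Of 19 leukocyte genes 7 were tested, 3 called higher and 4 lower. The leukocyte markers Ptprc (7 and 10 reads) and Adgre1 (0 and 0) were near 0. Csf1r, the receptor for macrophage colony-stimulating factor, was nevertheless at 39.9, 44.0 and 39.4 CPM in wild type and 0.860, 1.26 and 0.990 CPM in orpk (log2 fold change -5.29 ± 0.13). The part of mixed cell types in these differences was not tested.

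Of 44 collagen genes 31 were tested, and 26 were called higher in orpk and 4 lower. The summed level of the list was 2844 to 3047 CPM in wild type and 35579.6 to 41506 CPM in orpk. Beside the fibrillar chains above, Col5a2 (10.91), Col6a3 (10.24) and Col8a1 (10.26) rose most. The main basement membrane chain Col4a1 was at 2.23, 2.58 and 2.5 CPM in wild type and 934, 973 and 929 CPM in orpk, and Col4a2, which lies head to head with it, had a log2 fold change of 6.34. The 4 lower chains were Col18a1, Col7a1 (-2.48), Col2a1 (-2.19) and Col4a6 (-0.31). Col18a1, the source of endostatin, was at 1074, 1146 and 1143 CPM in wild type against 15.7, 18.3 and 17.0 CPM in orpk, so its direction was opposite to that of most collagens and its libraries did not overlap.

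Laminin and integrin chains moved in both directions. Of 18 basement membrane genes tested, 10 were higher and 8 lower. Npnt (nephronectin, -7.47), Lama5 (-4.78) and Agrn (agrin, -1.92) were lower, while Nid1 (8.99) and Nid2 (4.92), which link laminin to type IV collagen, and Lamb2 (2.10) were higher. Lama4, the laminin chain of vessel walls, had 2 reads over wild type and was 3414-fold higher, 95% counting interval 945 to 28200.0 in orpk. Of 20 integrin chains 13 were higher and 6 lower. Itga3 (-2.53), Itga6 (-1.98) and Itgb4 (-0.67), which form laminin receptors of epithelia, were lower, and Itgb6 had no orpk read. Itga11 (9.68), a collagen receptor of fibroblasts, and Itga5 (1.62) and Itgav (1.65), partners in fibronectin and vitronectin receptors, were higher.

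Of 31 matrix proteases and inhibitors 26 were tested, 22 called higher and 3 lower. Mmp2, a gelatinase, rose by 8.91 on the log2 scale, its membrane-bound activator Mmp14 by 3.40, and the inhibitors Timp1, Timp2 and Timp3 by 2.22, 1.90 and 10.05. Mmp15, another membrane-bound protease, was lower (-6.82).

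**Figure D3:**
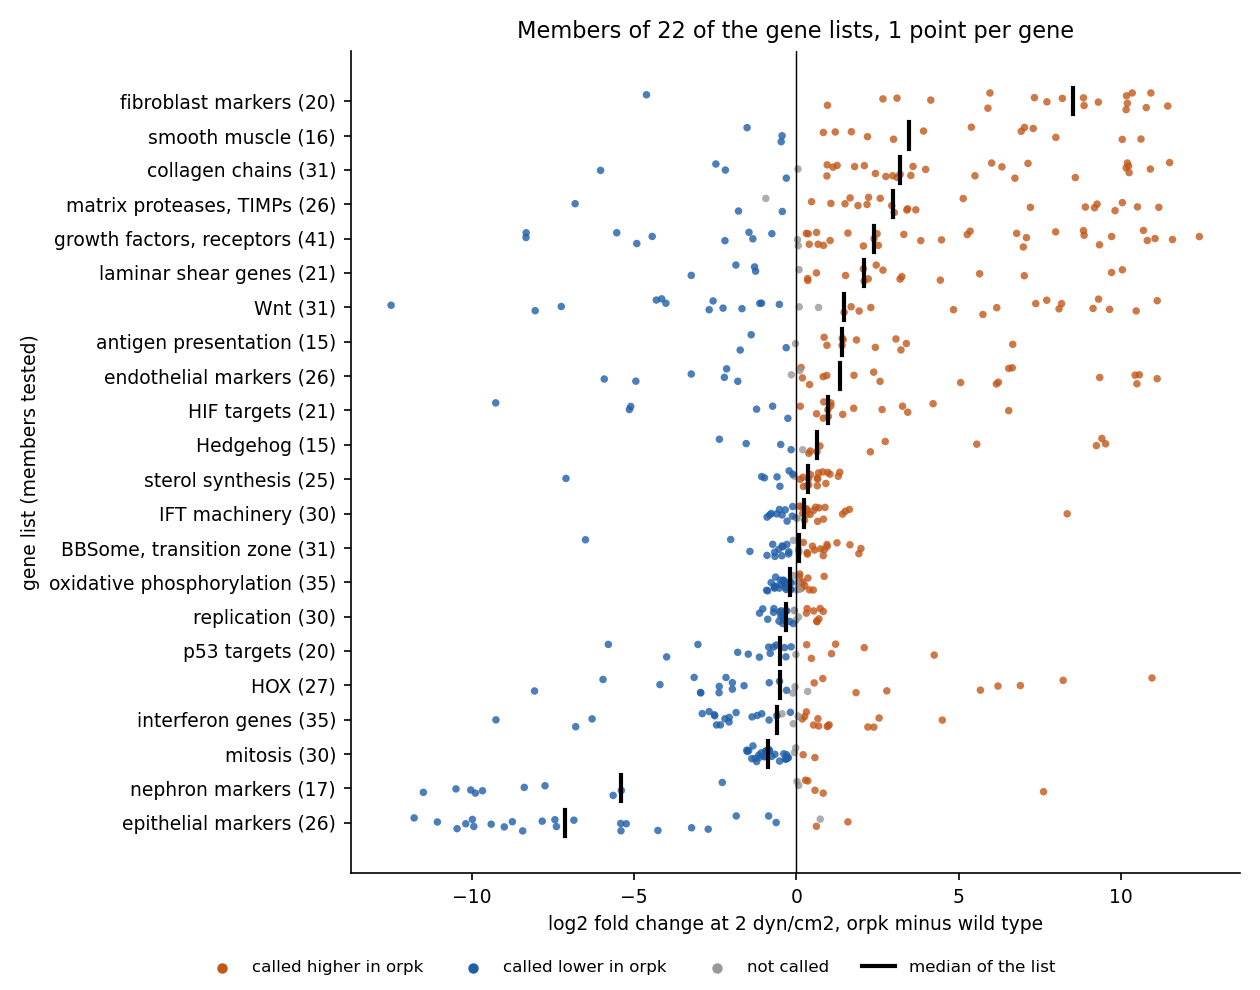
Log2 fold change at 2 dyn/cm2 (orpk minus wild type) of each tested member of 22 gene lists, 1 point per gene, in the order of the list medians (black bars), with the number tested in brackets. Orange points were called higher, blue points lower and grey points not called. Fibroblast markers lie furthest to the right and epithelial markers furthest to the left, and the cilium, oxidative phosphorylation and replication lists lie around 0.

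HOX genes, which record the position of a cell along the body axis, differed by cluster. Of 39 genes 27 were tested, 9 called higher in orpk and 15 lower. The HoxC genes were the clearest gain. Hoxc8 was at 0 in each library of wild type and 15.6, 16.4 and 15.3 CPM of orpk (at least 281-fold higher), and Hoxc6, Hoxc5, Hoxc4 and Hoxc9 rose by 8.22, 5.67, 6.21 and 2.79. The more 5′ Hoxc13 was lower (-2.95). The HoxA genes were the clearest loss. Hoxa10 was at 96.0, 86.1 and 88.8 CPM in wild type and 1.39, 1.20 and 1.73 CPM in orpk (log2 fold change -5.96 ± 0.093), and Hoxa9, Hoxa7 and Hoxa6 followed at -4.21, -3.15 and -2.95. All 8 HoxA genes other than Hoxa2 were called lower, and Hoxa2 was not called. In HoxB the fall was at the 5′ end, in Hoxb13 (21.8, 18.2 and 17.0 CPM against 0, 0.120 and 0.0619 CPM), Hoxb9 (-2.17) and Hoxb8 (-2.38), while Hoxb4 (0.55) and Hoxb7 (0.81) were higher. HOX genes overlap antisense transcripts, so their values carry the strand limit given for Ift88.

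**Figure D4:**
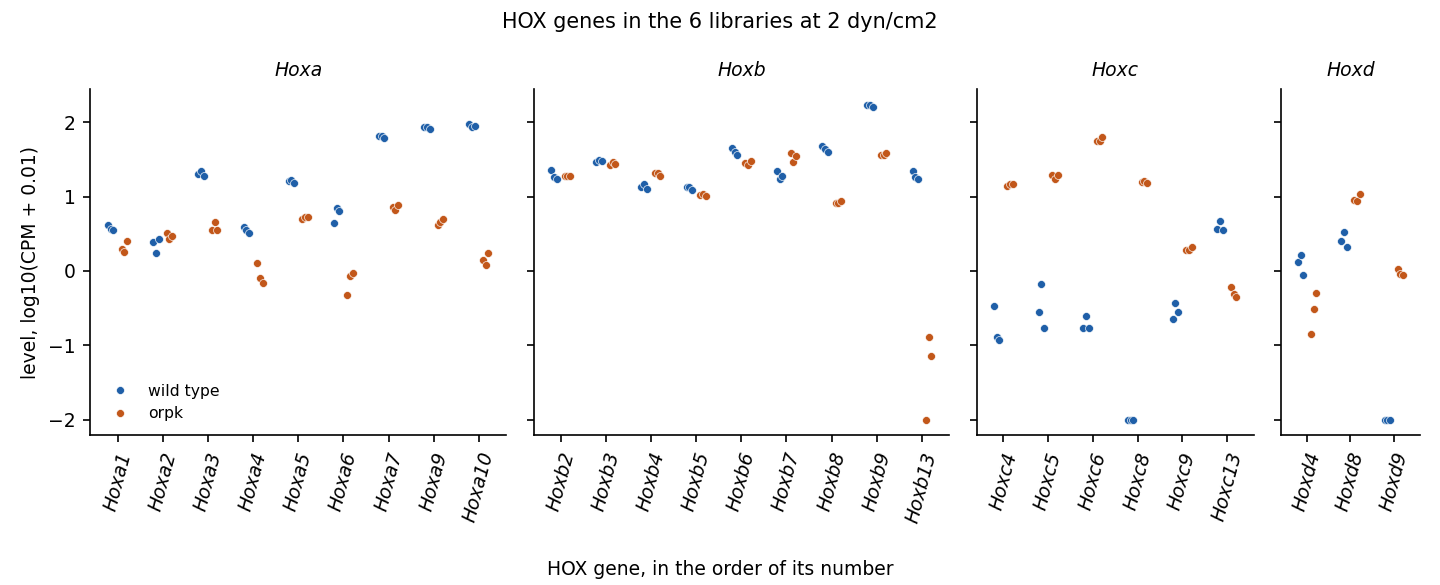
Levels of the 27 tested HOX genes in the 3 wild-type (blue) and 3 orpk (orange) libraries at 2 dyn/cm2, by cluster and gene number, on a log10 axis of CPM plus 0.01 (no read at -2). Wild type is higher at Hoxa3 to Hoxa10 and at Hoxb13, and orpk is higher at Hoxc4 to Hoxc9.

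The transport machinery that IFT88 belongs to changed little in size. Of 32 IFT subunits and motors 30 were tested, 18 called higher in orpk and 10 lower, with a median of 0.22. On library totals the counts were 11 and 13, so the list has no direction apart from the scaling. Ift88 was the lowest member. The retrograde motor chain Dync2h1 (-0.83), the small GTPase Ift22 (-0.78) and Wdr35 (IFT121, -0.61) were next. Wdr19 (IFT144), a subunit of the complex for retrograde transport, was at 37.4, 40.1 and 41.3 CPM in wild type and 128, 123 and 117 CPM in orpk (log2 fold change 1.63 ± 0.048), and Hspb11 (IFT25, 1.51) and Ttc30b (1.42) were also past 2-fold. Ttc30a1, a near copy of Ttc30b, had no wild-type read and 123 orpk reads, and reads of the 2 copies may be split between them.

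BBSome and transition zone genes control entry to and exit from the cilium, and their list also holds the transcription factor Foxj1. Its members were called higher in 14 and lower in 14 of 31 cases. These counts are near the shares over all genes tested, 44.6% higher and 42.9% lower. Foxj1, the master factor of motile cilia, was at 86.1, 83.3 and 82.8 CPM in wild type and 0.992, 0.662 and 1.11 CPM in orpk (log2 fold change -6.50 ± 0.10), and no orpk library came near a wild-type one. Rfx3, which acts with it, was lower (-1.43), as was the transition zone protein B9d2 (-2.03). Cc2d2a (1.93) and the BBSome subunit Bbs7 (1.65) were higher.

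Flow sensors were called higher in 11 and lower in 5 of 17 cases. Trpv4, a calcium channel opened by shear and osmotic stretch, was at 267, 277 and 278 CPM in wild type and 0.992, 1.20 and 1.11 CPM in orpk (log2 fold change -7.94 ± 0.079, adjusted p = 5.32e-47). The ATP receptor P2ry2 was lower too (-4.31). Pkd1 (polycystin-1), the partner of the cilium channel Pkd2, was at 116, 151 and 161 CPM in wild type and 578, 580.1 and 584 CPM in orpk (log2 fold change 2.03 ± 0.079), with the standing-apart wild-type replicate 1 the lowest. Pkd2 itself differed by -0.24. The stretch-gated channels Piezo1 (1.76) and Piezo2 (2.34) and the shear-sensitive potassium channel Kcnj2 (1 and 547 reads) were higher.

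Hedgehog genes did not move as a single output. Gli1 and Ptch1 are both direct targets that rise when the pathway is active. Gli1 was at 1.03, 1.38 and 1.52 CPM in wild type and 6.48, 6.43 and 6.25 CPM in orpk (log2 fold change 2.28 ± 0.16). Ptch1, the receptor that holds the pathway off, was at 134, 158 and 151 CPM in wild type and 29.2, 28.6 and 27.7 CPM in orpk (log2 fold change -2.38 ± 0.055), the opposite direction. Among effectors, Gli2 had 3 wild-type reads and 1864 orpk reads, Gli3 differed by 0.43 and the transducer Smo by 0.72. The co-receptors Boc (2 and 1486 reads) and Gas1 (5.56) were higher, the inhibitors Gpr161 (-1.55) and Sufu (-0.48) were lower, and the ligands Shh, Ihh and Dhh had at most 5 reads in either group.

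Genes that endothelium regulates under laminar flow were called higher in 16 and lower in 4 of 21 cases (median 2.09). Of the 2 flow-induced Kruppel-like factors, Klf4 was at 16.7, 15.5 and 16.8 CPM in wild type and 89.4, 97.1 and 83.5 CPM in orpk (log2 fold change 2.46 ± 0.069), while Klf2 was at 8.48, 6.61 and 6.73 CPM and 6.15, 9.62 and 7.24 CPM and overlapped (adjusted p = 0.574). Cyp1b1, a target of the aryl hydrocarbon receptor, was at 129, 134 and 129.9 CPM against 1309.6, 1164 and 1266 CPM. Nqo1 (4.44) and Hmox1 (1.51), antioxidant enzymes, and the prostaglandin synthases Ptgs1 (5.65) and Ptgs2 (2.21) were higher, and Ptgds (-1.87) was lower.

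Growth factors and their receptors gave 30 higher and 9 lower calls among 41 tested, with a median of 2.39. PDGF ligand and receptors went opposite ways. Pdgfb was at 80.1, 78.3 and 78.6 CPM in wild type and 2.25, 1.8 and 1.05 CPM in orpk (log2 fold change -5.54 ± 0.100), and Pdgfrb, its receptor, was higher in orpk (log2 fold change 8.87 ± 0.070). FGF genes also moved in both directions. Fgf1 (-8.34) and Fgfr3 (-4.92) were lower, Fgfr1 (10.70) and Fgf7 (7.09) higher, and Fgf10, a mesenchymal ligand for epithelia, had no wild-type read and stood at 42.1, 45.3 and 42.7 CPM in orpk. Igf2 was at 0.978, 0.360 and 0.705 CPM against 453, 431 and 481 CPM (log2 fold change 9.34 ± 0.097), and Angpt1, the Tek ligand made by mural cells, rose by 9.72.

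TGF-beta and BMP genes were higher in 20 and lower in 10 of 34 cases. Tgfb2 (5.06) and Tgfb1 (1.27), Inhba (2.72) and Bmp4 (2.12) were higher among ligands and Bmp6 (-5.28) was lower, while Inhbb was at 29.2, 27.4 and 26.5 CPM in wild type with 2 reads over orpk. In Notch, the receptor Notch3 of mural cells (5.39) and the target Hey1 (2.57) were higher, and the ligand Jag2 (-4.13) and the modifier Lfng (-3.20) were lower, with 9 and 7 calls among 17.

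Wnt genes were called higher in 16 and lower in 13 of 31 cases, beside 44.6% and 42.9% of all genes tested. Wnt10a was at 47.1, 46.7 and 43.5 CPM in wild type and 0 in each orpk library, and Wnt7b (-7.25) and Wnt4 (-4.16) were lower. Wnt5a had 3 reads over wild type and 2474 over orpk. The pathway's nuclear factors Lef1 (-4.02) and Tcf7 (-4.32) and its target Axin2 (-1.68) were lower in orpk, and Rspo3, a secreted enhancer of Wnt signals, had 1 and 2844 reads. YAP and TAZ target genes were called higher in 16 and lower in 8 of 25 cases, with Ccn1 at 1.12, Ankrd1 at 0.30 (not called on library totals) and Ccn2 at -0.85.

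Interferon-stimulated genes were split, with more members lower in orpk. All 35 were tested, 13 called higher and 19 lower, or 8 and 21 on library totals. Promoter windows of RefSeq genes on GRCm38.p6 (250 bases before to 50 after the start) were searched on both strands for 2 copies of GAAA with 2 bases of any kind between them, the core of the interferon-stimulated response element. The letters were found in 3.44% of 32851 windows, in 3.99% of the 27025 genes that have one, and in 13 of 24 list members. That share covers only the 24 of the 35 members that had a window. The members were listed because they are known interferon-stimulated genes, so the share is no check of the list. Of those 13, 3 were called higher, 8 lower and 2 not called. To show what the match looks like in members that went different ways, the 50 bases around it follow for 3 members lower in orpk (Rsad2, Oas3, Bst2), 1 not called (Ifit1) and 1 higher (Gbp2), each 5′ to 3′ on its gene's strand with 1 match in capitals. Bst2 and Ifit1 hold a second match within the bases shown. In Ifit1 it is left in lower case, and in Bst2 it overlaps the first, so its first bases are in capitals.
Rsad2 (chr12:26456543-26456592, minus strand): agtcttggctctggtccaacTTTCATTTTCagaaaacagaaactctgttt
Oas3 (chr5:120777705-120777754, minus strand): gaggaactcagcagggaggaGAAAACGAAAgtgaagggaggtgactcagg
Bst2 (chr8:71537573-71537622, minus strand): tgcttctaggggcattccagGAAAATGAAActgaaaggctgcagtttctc
Ifit1 (chr19:34640765-34640814, plus strand): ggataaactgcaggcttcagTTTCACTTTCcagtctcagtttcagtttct
Gbp2 (chr3:142620584-142620633, plus strand): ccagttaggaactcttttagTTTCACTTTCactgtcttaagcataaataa
In Oas3 and Bst2 the capitals read in the direction of the gene, and in the other 3 they are its reverse complement. A match describes the letters only.

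The 5 genes with these sequences differed in direction. Rsad2 (viperin), an antiviral enzyme, was at 4.56, 4.51 and 5.43 CPM in wild type and 0.728, 1.14 and 1.24 CPM in orpk (log2 fold change -2.21 ± 0.22). Oas3, a sensor of double-stranded RNA, was at 1.58, 2.16 and 2.06 CPM against 0.198, 0.421 and 0.124 CPM (log2 fold change -2.90 ± 0.50), and Bst2 (tetherin) at 84.2, 78.1 and 77.0 CPM against 36.9, 33.3 and 33.5 CPM (log2 fold change -1.21 ± 0.058). Every orpk library was below every wild-type one for these 3. Ifit1 was at 18.1, 15.2 and 17.1 CPM in wild type and 17.5, 20.2 and 14.7 CPM in orpk and overlapped (adjusted p = 0.705). Gbp2, a GTPase induced mainly by interferon gamma, was at 1.68, 1.86 and 1.68 CPM against 38.5, 43.3 and 36.5 CPM (log2 fold change 4.50 ± 0.11). The lowest members were the ubiquitin ligase Trim25 (170.2, 171 and 175 CPM against 0.265, 0.421 and 0.124 CPM), Oasl1 (-6.81) and the interferon regulator Irf7 (-6.30), and Ddx58 (RIG-I, 1.01) was higher. Ifit3 and Ifit3b are near-identical copies, so their values (-1.86 and -1.37) may share reads.

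Antigen presentation genes were higher in 11 and lower in 3 of 15 cases. Nlrc5, the activator of class I genes, rose by 6.67, the peptide transporters Tap1 and Tap2 by 1.85 and 3.39, and the light chain B2m by 1.41. Class I genes are a family of similar sequence, so H2-D1 (3.22) and H2-T23 (-1.73) are uncertain. Among adhesion and NF-kB genes, Vcam1, the receptor by which leukocytes stick to vessels, was at 2.93, 3.0 and 3.31 CPM in wild type and 209, 249 and 194 CPM in orpk (log2 fold change 6.14 ± 0.11). Icam1, its counterpart on inflamed endothelium, was at 0.109, 0.120 and 0.109 CPM in wild type and 0.265, 1.14 and 0.309 CPM in orpk, with orpk replicate 2 far above the others. Its log2 fold change of 2.30 was called, but not without that library (1.30, adjusted p = 0.0801 in edgeR's test). Ccl2 (4.16), Ccl7 (8.82) and Il6 (4.86) were higher and Cxcl10 (-3.03) and Cx3cl1 (-2.92) lower, for 11 and 12 calls among 24.

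Mitosis genes were mostly lower in orpk at this shear. Of 30 mitosis genes 26 were called lower and 2 higher (median -0.87), and 10 passed the 2-fold test, among them the kinases Plk1 (-1.52), Aurka (-1.47) and Cdk1 (-1.23). Of 30 replication genes 18 were lower and 8 higher (median -0.31), with Mcm7 at -1.04 and Pcna at 0.53. Cdkn1a (p21), the inhibitor of cyclin-dependent kinases, was also lower, at 286, 266 and 265 CPM in wild type and 16.6, 17.4 and 17.0 CPM in orpk (log2 fold change -4.0 ± 0.058). The p53 targets as a list gave 13 lower and 6 higher calls among 20, from the stress cytokine Gdf15 (-5.80) to the death receptor Fas (4.25).

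By their medians, metabolic lists moved by less than the fibroblast, epithelial and nephron lists, but some held members with large changes in both directions. Of 21 targets of the hypoxia factor HIF 15 were higher and 6 lower (median 0.97). Past the 2-fold test were 6 higher and 4 lower, beside 19.3% and 13.3% of all genes tested. Bnip3, a mitophagy receptor, was at 11.8, 8.41 and 10.1 CPM in wild type and 59.1, 68.1 and 62.6 CPM in orpk (log2 fold change 2.64 ± 0.075), and the collagen hydroxylase P4ha2 at 38.4, 37.9 and 38.9 CPM against 379.8, 463 and 400.2 CPM. The HIF hydroxylase Egln3 (-5.11) and the HIF subunit Epas1 (-5.15) were lower. Glycolysis gave 15 higher and 6 lower calls among 23, from the lactate carrier Slc16a3 (7.72) to Aldoc (-3.96), and 6 and 1 passed the 2-fold test. Oxidative phosphorylation gave 10 higher and 21 lower calls among 35, or 4 and 28 on library totals, none past 2-fold.

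Sterol synthesis genes were called higher in 17 and lower in 7 of 25 cases. NRF2 and antioxidant genes were called higher in 12 and lower in 7 of 22 cases, but in 8 and 12 on library totals. Unfolded protein response genes split evenly, at 10 and 10 of 20, and immediate early genes at 8 and 9 of 20, with Egr1 lower (-1.94) and Dusp1 higher (2.03). Over all genes tested, 44.6% were higher and 42.9% lower.

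The low-shear difference was then set beside the genotype difference in static culture and at 30 dyn/cm2, each from its own libraries. In static culture 11465 genes (87.8%) were called, 5795 higher (44.4%) and 5670 lower (43.4%), and 4687 (35.9%) were past 2-fold, 20.3% higher and 15.6% lower. At 30 dyn/cm2 11350 (86.9%) were called, 44.9% higher and 42.0% lower, and 4476 (34.3%) were past 2-fold, 2615 higher (20%) and 1861 lower (14.3%). Of the genes past 2-fold at 2 dyn/cm2, 3667 were past it in the same direction in static culture, which is 86.1% of the low-shear list and 78.2% of the static list. With 30 dyn/cm2 the shared genes were 3642 (85.5% and 81.4%), and 3268 genes were past 2-fold in the same direction in all 3 conditions. Opposite directions past 2-fold occurred in 4 genes against static culture (Ccl5, C3, Tesmin, Necab3) and in 3 against 30 dyn/cm2 (St8sia1, Tph1, Ccl17).

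The size of the genotype difference still depended on flow for many genes. The change of the difference from static culture to 2 dyn/cm2 was called in 6864 genes (52.6%), 3541 up (27.1%) and 3323 down (25.4%), and by more than 1 on the log2 scale in 1023. From 2 to 30 dyn/cm2 it was called in 6073 (46.5%), 3261 up (25.0%) and 2812 down (21.5%), and by more than 1 in 796. On library totals that last split was 2386 up and 3755 down. Both changes use the same libraries at 2 dyn/cm2, so a rise in the first and a fall in the second are not independent of each other. The medians of the lineage lists kept their sign across flow. In static culture, at 2 and at 30 dyn/cm2 they were 8.82, 8.53 and 7.87 for fibroblast, -7.24, -7.13 and -7.39 for epithelial and -5.11, -5.40 and -3.85 for nephron genes. They were 3.57, 3.16 and 2.54 for mesothelial and 3.07, 3.46 and 3.27 for smooth muscle genes, and in 11 of 16 smooth muscle genes the difference rose from static culture to 2 dyn/cm2, against 1 in which it fell.

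For most sterol synthesis genes the genotype difference moved in the same direction at both steps. The genotype difference rose from static culture to 2 dyn/cm2 in 24 of 25 genes and from 2 to 30 dyn/cm2 in 24 of 25, and fell in none by either test. The list medians were -1.01, 0.37 and 1.17. Hmgcs1, an early enzyme of the pathway, had genotype differences of -1.45, 0.37 and 1.17 (first change 1.82 ± 0.050, adjusted p = 4.86e-28). Lss, which closes the sterol rings, had differences of -1.63, 0.12 and 1.30, the value at low shear being -0.10 on library totals. For both genes the difference was smallest in size at 2 dyn/cm2.

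The median of the replication genes was nearest 0 at low shear. The difference rose from static culture to 2 dyn/cm2 in all 30 genes and fell from 2 to 30 dyn/cm2 in 28, with list medians of -1.45, -0.31 and -0.88. In mitosis genes the difference rose in 16 and fell in 6 over the first step, and it fell in 29 of 30 over the second.

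HIF target and glycolysis lists had their highest median genotype difference at 2 dyn/cm2. By their medians, both lists were nevertheless lower at 2 dyn/cm2 than in static culture in each genotype. Their median log2 changes were -2.31 in wild type and -1.625 in orpk for HIF targets, and -2.107 and -1.209 for glycolysis. Medians of the genotype difference were 0.032, 0.97 and 0.44 for HIF targets and -0.060, 0.52 and -0.28 for glycolysis. The difference rose in 13 of 21 HIF targets over the first step and fell in 10 over the second. For glycolysis the same counts were 11 and 13 of 23. Bnip3 had differences of 0.072, 2.64 and 0.30 (first change 2.57 ± 0.089, adjusted p = 2.8e-24). Pfkl, a phosphofructokinase that commits sugar to glycolysis, had differences of -1.09, 0.61 and -0.68. Carbonic anhydrase Car9, a HIF target, had 0.071, 4.21 and 3.65.

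For other lists the genotype difference moved the other way over the first step. It fell in 19 of 35 interferon genes and rose in 1, with medians of 0.34, -0.61 and -0.81. In p53 targets it fell in 10 of 20 and rose in none by edgeR's test. The interferon genes' own median log2 change from static culture to 2 dyn/cm2 was 0.17 in wild type and -0.69 in orpk. For p53 targets it was 0.49 and 0.22, so their median rose with flow in both genotypes. In smooth muscle genes, by contrast, the difference rose in 11 of 16. Klf2 had a genotype difference of 2.12 in static culture and 1.26 at 30 dyn/cm2, both beyond that at 2 dyn/cm2 (adjusted p of the changes = 2.1e-11 and 2.73e-06). Txnip, an inhibitor of glucose uptake, was at 38.6, 37.1 and 37.0 CPM in wild type and 326, 399 and 307 CPM in orpk at low shear, a difference of 3.20 that stood at 2.18 in static culture and -0.27 at 30 dyn/cm2.

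**Figure D5:**
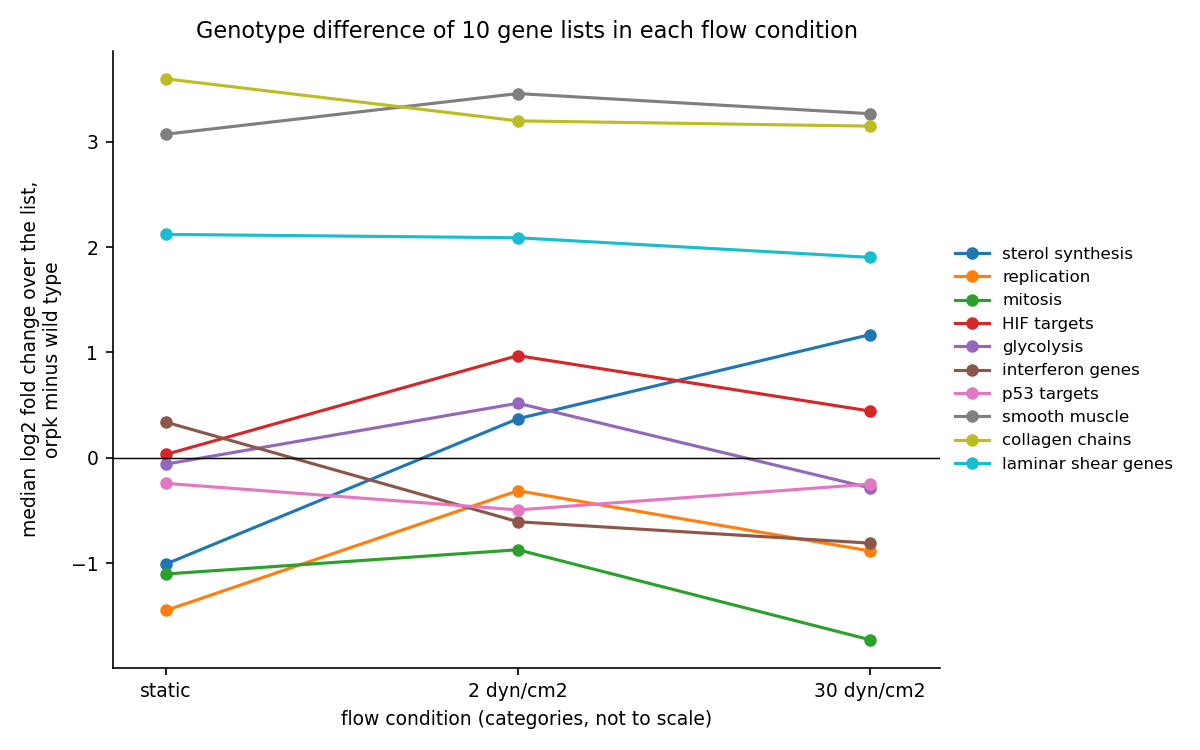
Median log2 fold change (orpk minus wild type) over the tested members of 10 gene lists in static culture, at 2 dyn/cm2 and at 30 dyn/cm2, with each point a list median from 3 libraries per genotype. Sterol synthesis rises from -1.01 through 0.37 to 1.17, HIF targets and replication have their highest medians at 2 dyn/cm2, and collagen chains stay above 3 throughout.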

How the data were processed

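The 18 libraries were stranded mRNA libraries read as 50 nt single reads, per the labels' protocols. CASAVA 1.8.2, STAR 2.4 and featureCounts 1.4.6 are named in the submitters' processing notes, with GRCm38. Strand and multimapping settings are not given in the sources used here. The deposited values are raw read counts per gene.

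Genes that passed edgeR's filterByExpr were fitted over the 18 libraries with 6 group means (edgeR 4.0.16, limma 3.58.1, R 4.3.3, TMM, glmQLFit robust, glmQLFTest), with Benjamini-Hochberg adjustment over all genes tested at 0.05. glmTreat tested against 2-fold. CPM values use TMM-scaled library sizes. Contrasts between flow conditions tested the change of the genotype difference. DESeq2 1.42.0 was an alternative. Scripts were tested on simulated data.

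Named genes were Ift88, the 10 highest and 10 lowest folds (mean of at least 5 CPM, more than 3 reads in the lower group), the 6 highest per genotype with at most 3 reads in the other, the 6 largest CPM differences per direction, the 6 largest changes across flow per direction, and up to 5 list members per direction. Some genes that met the rule are not reported here. Other list members were named for their known roles after their values were seen. The members and the 41 gene lists were chosen with earlier results of these data known. Counting intervals are exact at 95% and, like the bounds, cover counting error only. Gene symbols came from GENCODE M21 for 21583 of 21647 genes, and 1083 of 1090 list entries matched. Promoter sequences came from RefSeq.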

Additional observations from a re-analysis of the deposited data

Results flagged for a closer look

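A test of the difference between flow conditions found that the genotype difference was not the same in static culture and at 2 dyn/cm2 in 6864 genes, and not the same at 2 and 30 dyn/cm2 in 6073. The named genes below had the largest such changes among genes with reads in every group compared, and each value is the change of the orpk minus wild-type difference on the log2 scale.

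From static culture to 2 dyn/cm2, the difference rose for the glycolytic aldolase Aldoc by 4.7 (from -8.65 to -3.96) and for Car9 by 4.14 (from 0.071 to 4.21). It also rose for Iffo1 by 3.49, Tcp11l1 by 3.26, C1qtnf3 by 3.25 and Lrrc75b by 3.12. It fell for the matrix protein Spon2 (change -3.62), the gap junction protein Gja1 (-3.22), Lpin3 (-3.21) and the linker histone Hist1h1c (-3.14). The chemokine Ccl5 changed by -3.37, from 2.03 in static culture to -1.34, and complement C3 by -3.11, from 1.32 to -1.79, so both were higher in orpk without flow and lower at low shear.

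From 2 to 30 dyn/cm2, the difference rose for Pi16 by 4.38, for Cbs, an enzyme of homocysteine removal, by 3.7, for Anxa8 by 2.93, for the growth factor Fgf2 by 2.86, for Arnt2 by 2.68 and for Pdzk1ip1 by 2.62. It fell for Txnip (-3.46), Rbm20 (-3.05), Capn6 (-2.93), Cdsn (-2.88), the ephrin receptor Epha7 (-2.81) and Megf6 (-2.71). The Megf6 change rested on orpk replicate 2 at 2 dyn/cm2, and without that library it was -2.02 with an adjusted p of 0.0558 in edgeR's test.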

How the results depend on the processing

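The counts of genes called kept within 1.5 times of their values under every alternative run (RLE factors, library totals, no filter, a filter at a mean of 1 CPM, DESeq2, only the compared groups, the replicate block, and each library left out). With library totals, the members called higher were 1 of the epithelial, 3 of the nephron, 11 of the IFT, 1 of the mitosis, 4 of the oxidative phosphorylation and 8 of the interferon list, those called lower 1 of the mesenchymal and 12 of the NRF2 list, and the fold changes of Bub1 (-0.015), Ifit1 (-0.17), Klf2 (-0.14), Lss (-0.10) and Tgfbr2 (-0.13) turned negative. With the filter at 1 CPM, 1 mesothelial gene was higher and 0 fibroblast and 2 leukocyte genes lower, because fewer genes were tested, and with only the compared groups 0 fibroblast genes were lower. Without both libraries that stand apart, Ifit1 was at -0.011. Leaving out 1 library at a time gave Ifit1 between -0.067 and 0.17, Klf2 between -0.12 and 0.21, 1 to 2 interferon genes with a rising difference from static culture to 2 dyn/cm2, and 0 to 1 p53 targets. At 2 dyn/cm2, same-numbered wild-type and orpk libraries did not deviate together (correlations -0.021, 0.0017 and -0.042). A small shared effect could give such values too, so whether the numbers pair the libraries was not settled. With the replicate block 5825 genes were higher and 5601 lower. Transcripts with few reads in 1 genotype limit the depth of the largest folds to bounds.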

Other observations

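Imprinted genes, which are expressed from 1 parental copy, held some of the largest differences in either direction. Of 34 listed genes 22 were tested, 10 called higher in orpk and 11 lower, beside 44.6% and 42.9% of all genes tested. Grb10, an adaptor that restrains growth factor receptors, was at 0.924, 1.14 and 1.14 CPM in wild type and 1553, 1578 and 1525 CPM in orpk (log2 fold change 10.50 ± 0.070). Dlk1, a membrane protein of progenitor cells, was at 0.163, 0 and 0.271 CPM against 292, 314 and 293 CPM (log2 fold change 10.89 ± 0.12). Cdkn1c (p57), an inhibitor of the cell cycle, was at 128, 110.2 and 102 CPM against 2.45, 2.10 and 2.41 CPM (log2 fold change -5.60 ± 0.11). On chromosome 6, Peg10 was lower while Sgce, next to it and imprinted with it, was higher (2.03).

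Guidance genes, which steer axons and vessel sprouts, were called higher in 33 and lower in 16 of 49 cases. Slit3 had 1 read over wild type and 5259 over orpk, and its receptors Robo1 and Robo2 had none in wild type and 465 and 214 in orpk. Plxnb1, the receptor of the semaphorin Sema4d, was at 141, 168 and 166 CPM in wild type and 9.85, 10.3 and 8.66 CPM in orpk (log2 fold change -4.04 ± 0.068), and Sema4d itself had a log2 fold change of -4.14. Of the 6 Y-linked genes tested, Kdm5d (-2.56), Eif2s3y (-3.11), Uty (-2.52), Ddx3y (-2.35) and Gm47283 (-1.97) were lower in orpk and Uba1y (3.06) was higher. Over the autosomes and X, the median log2 fold change by chromosome ran from -0.44 on chromosome 7 (1001 genes) to 0.54 on chromosome 4 (836 genes), and the same 2 medians were -0.37 and 0.48 in static culture and -0.41 and 0.56 at 30 dyn/cm2. Of 20 skeletal and cardiac muscle genes 10 were tested, 6 called higher and 3 lower, and of 15 neural genes 8, with 4 and 4.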
